A study of Mus musculus with 8 samples.

Results

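The transcripts described here are those of 35 named genes of the unfolded protein response of the endoplasmic reticulum (ER) and of the ATF4 response, taken from the 55414 genes of the tables by their names. They were grouped by role into 4 sensor genes (the 3 sensors and the transcription factor Xbp1), 11 genes of the ATF4 arm, 2 regulatory subunits of the phosphatase of eIF2α, 13 ER chaperones and folding factors, and 5 genes of ER-associated degradation. A total of 36 table rows carry these names, because Ddit3 is listed under a second identifier that had no more than 4.2 expected counts in any library and was not tested. All 35 genes were among the 14772 genes with enough counts to be tested.

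The RNA came from mpkCCD cells, a single subclone of a mouse line that started from cortical collecting ducts of animals carrying a viral T antigen and that serves as a model of the principal cell. One group of cells received tolvaptan, an antagonist of the V2 vasopressin receptor, plus dDAVP, an agonist of the same receptor, and the other group received dDAVP alone, so both groups carry the agonist. There were 4 libraries in each group. Dose and duration are not in the labels. The comparison asks how the transcriptome of cells kept under the agonist differs once the antagonist is added.

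Proteins entering the ER are folded by chaperones, and an excess of unfolded protein is sensed by the membrane proteins IRE1α, ATF6 and PERK. ATF6 and the XBP1 protein made after IRE1α cuts Xbp1 mRNA raise the transcription of chaperones and of the machinery that returns misfolded proteins to the cytosol. PERK instead phosphorylates eIF2α, which slows translation in general but favors that of ATF4, a factor that turns on genes of amino acid supply and stress. Other kinases also phosphorylate eIF2α, so the ATF4 genes can move without the chaperones, and the arms are therefore given separately below.

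Total expected counts per library were 41179670 to 49720488 with tolvaptan plus dDAVP and 46189118 to 56203831 with dDAVP alone. Of 12 principal cell markers, 10 exceeded 1 TPM in at least 1 library, whereas Elf5 and Kcnj1 did not. The summed level of the 12 was 9440 to 11900 TPM with tolvaptan plus dDAVP and 9040 to 11300 TPM with dDAVP alone. Most of this sum was Aqp2, at 8204 to 10462 TPM and 7771 to 9873 TPM in those groups. No marker of stroma, endothelium or the loop and distal tubule passed 1 TPM. Of the other marker lists, 1 gene each passed it, Atp6v1b1 of intercalated cells at 30.9 to 96.6 TPM with tolvaptan plus dDAVP and 32.7 to 112 TPM with dDAVP alone, Lrp2 of the proximal tubule at 8.87 to 11.4 TPM and 8.27 to 10.1 TPM in those groups, and Cd68 of immune cells at 5.66 to 6.87 TPM and 4.3 to 5.71 TPM. The library tolvaptan 1 had the lowest share of counts in ribosomal protein genes, 0.51% against 0.621% to 0.751% in the others, and the lowest mean correlation with the other libraries, 0.9902 against 0.9921 to 0.9933. Across all 14772 genes, edgeR's quasi-likelihood test called 59 genes at an adjusted p under 0.05, or 0.399%. Nothing in the labels ties libraries to separate cultures, and the p-values therefore rest on a library-to-library spread that could be technical. In bulk RNA, fewer cells of a type cannot be told apart from less RNA per cell.

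Most of the 35 genes were expressed at high levels in both groups, and 22 of them averaged above 100 TPM over the 8 libraries. Of the 35 genes, 1 passed the test (2.86%), which was Ppp1r15a, and it fell. Of all genes tested, 0.399% were called and 0.217% were called as lower. A further 6 had an unadjusted p under 0.05, making 7 of 35 (20%) beside 11.2% of all genes, with 3 lower and 4 higher. The values of the 2 groups did not overlap for 4 genes (11.4%), Ppp1r15a, Atf6, Hspa5 and Hsp90b1, beside 7.76% of all genes. The median log2 fold change, tolvaptan plus dDAVP over dDAVP alone, was 0.01 for the 35 genes and -0.00482 for all genes tested. The intervals were narrow, and for 29 of 35 genes (82.9%, against 55.8% of all genes) the 95% confidence interval of the change lay within a fold of 1.25 in either direction. No background of genes matched for level was built. Since interval width depends on level, these shares do not compare like with like.

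**Figure D1:**
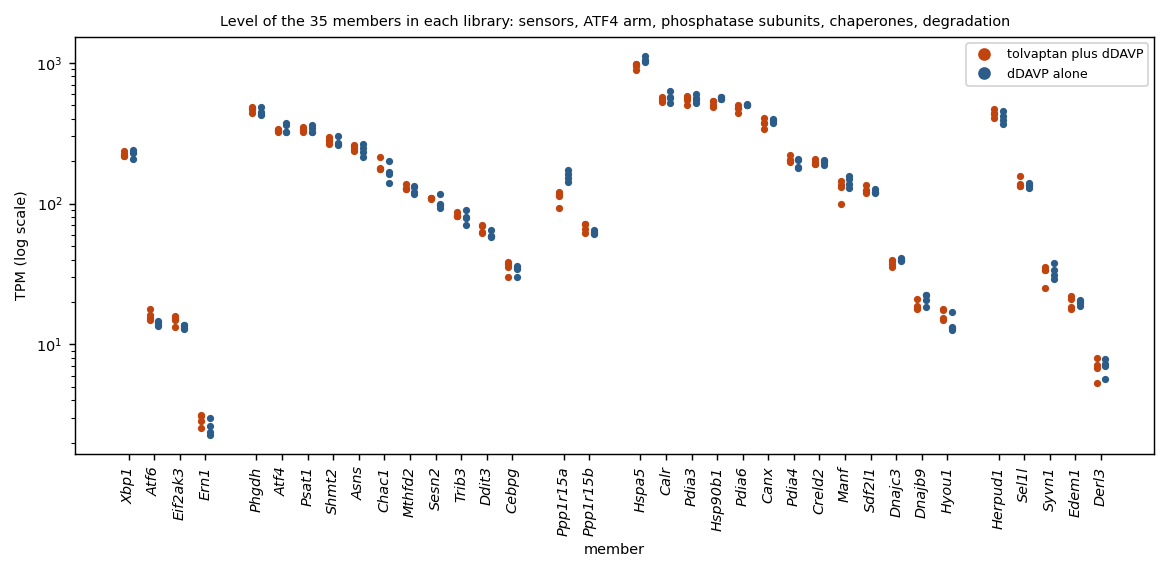
Level of each of the 35 genes in each library, in TPM (transcript abundance adjusted for transcript length, with an equal total per library) on a log axis, with tolvaptan plus dDAVP at the left of each pair and dDAVP alone at the right, grouped by role. Hspa5 was the most abundant at a mean of 1005 TPM over all libraries and Ern1 the least at 2.74 TPM, and the points of the 2 groups lie apart most clearly for Ppp1r15a.

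The phosphatase subunit Ppp1r15a (ENSMUSG00000040435) was the member called as lower. It encodes GADD34, the stress-inducible subunit that brings protein phosphatase 1 to eIF2α and so restores translation, and its gene is itself a target of ATF4 and of CHOP. Ppp1r15a measured 117, 122, 113 and 93.3 TPM in the 4 libraries with tolvaptan plus dDAVP and 142, 152, 173 and 161 TPM in those with dDAVP alone. Every library with tolvaptan was below every library without it. The means were 111 ± 12.5 TPM with tolvaptan plus dDAVP and 157 ± 13.4 TPM with dDAVP alone (SD, n = 4 each). The fitted log2 fold change was -0.55 (standard error 0.09, 95% confidence interval -0.75 to -0.36, adjusted p = 0.0243 by edgeR), a decrease to 0.681 of the level with dDAVP alone. The transcript had 3782 to 5912 counts with tolvaptan plus dDAVP and 6651 to 8089 counts with dDAVP alone, so counting error was small beside the spread between libraries.

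The direction of Ppp1r15a was the same in every fit, while its call was kept in only 8 of the 17 alternatives. With any 1 library left out the log2 fold change lay between -0.65 and -0.50 and the edgeR adjusted p between 0.00173 and 0.109, with the call lost without tolvaptan 3 (0.0587), tolvaptan 4 (0.0849), dDAVP 1 (0.0666), dDAVP 2 (0.061), dDAVP 3 (0.109) or dDAVP 4 (0.0745). DESeq2 gave an adjusted p of 4.43e-06, limma gave 0.1 on log2(TPM + 1) and 0.0945 on log2(TPM + 0.1), and edgeR with the replicate number as a block gave 0.0731. The edgeR test against a fold of 1.5 gave an adjusted p of 1 for Ppp1r15a (unadjusted p = 0.357). Against that fold, 0% of all genes tested were called, and 0.332% had an unadjusted p under 0.05. The difference in log2 CPM (counts scaled to library size) was -0.42 among replicates 1 and 2, where olfactory and vomeronasal receptor genes summed to 29.4 to 52.9 CPM, and -0.71 among replicates 3 and 4, where they summed to 12.5 to 20.4 CPM. Their part in the result was not tested.

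Ppp1r15b, which encodes CReP, the constitutive subunit for the same phosphatase, did not pass the test and its fitted value was of the other sign. It measured 71.4, 71.2, 62.2 and 65.6 TPM with tolvaptan plus dDAVP and 62.5, 64.6, 61.8 and 60.9 TPM with dDAVP alone, and the groups overlapped. The 95% confidence interval of its log2 fold change, 0.11, was -0.0032 to 0.21 (edgeR adjusted p = 0.466). The ratio of Ppp1r15a to Ppp1r15b in TPM was 1.65 ± 0.167 with tolvaptan plus dDAVP and 2.52 ± 0.25 with dDAVP alone (SD, n = 4 each). It restates the fitted changes of these genes and is not a separate result.

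The promoter of Ppp1r15a is shown because this gene was the only member called in the main edgeR test, a call kept in 8 of the 17 alternatives. It was read from the RefSeq annotation of GRCm38.p6 as 300 bases from 250 before the start to 50 after it, at chr7:45526219-45526518 on the minus strand. Capitals mark TGACGTCA, the cyclic AMP response element (CRE) that binds CREB and ATF factors and was added to the search after the values were seen, found here from -12 to -5 relative to the start.
Ppp1r15a: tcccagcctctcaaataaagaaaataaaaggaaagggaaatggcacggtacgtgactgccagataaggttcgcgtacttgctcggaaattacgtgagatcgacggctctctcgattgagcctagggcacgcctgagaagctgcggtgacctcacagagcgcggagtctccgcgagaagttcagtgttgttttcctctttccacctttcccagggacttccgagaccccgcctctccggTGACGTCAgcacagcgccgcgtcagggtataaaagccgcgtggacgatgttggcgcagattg
The element occurred, on either strand, in 2.03% of the 27025 genes with a promoter window, and Ppp1r15a was the only match among the 31 members that had one. A match of letters is a description of the window and does not show that a factor binds it.

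**Figure D2:**
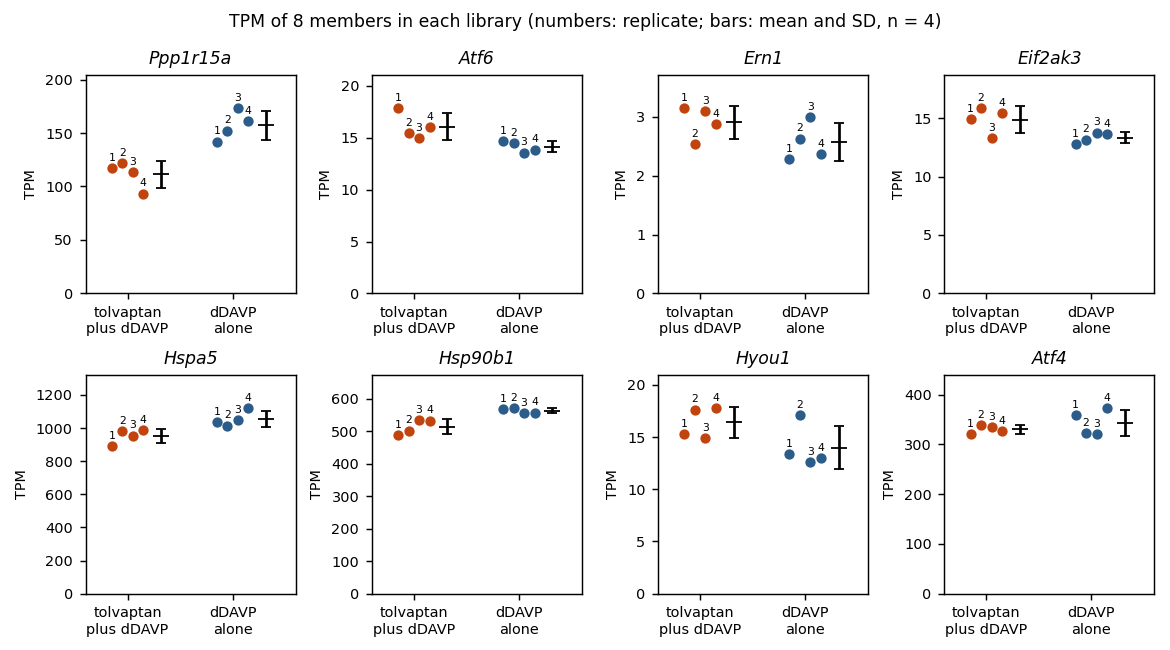
TPM of 8 members in each library, with tolvaptan plus dDAVP left of dDAVP alone, replicate numbers above the points, bars for mean and SD (n = 4) and axes starting at 0. The panels for Ppp1r15a, Atf6, Hspa5 and Hsp90b1 show no overlap between groups, and those for Ern1, Eif2ak3, Hyou1 and Atf4 do.

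The 3 sensor transcripts had higher fitted values with tolvaptan plus dDAVP, and none passed the adjusted threshold. In edgeR 0 of the 4 sensor genes were called, beside 0.399% of all genes tested, and DESeq2 and limma also called 0. Of the 4, 3 had an unadjusted p under 0.05, beside 6.44% of all genes that were higher by that measure. For the list as a whole the median was 0.16 on the log2 scale, and 0.14 without tolvaptan 1. The list's mean log2 CPM, with each gene taken relative to its mean over the 8 libraries, was 0.20 in tolvaptan 1. It was 0.03, -0.0005 and 0.07 in tolvaptan 2 to 4 and -0.13, -0.09, -0.04 and -0.04 with dDAVP alone.

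Atf6, which encodes the sensor that is cut in the Golgi to release a transcription factor, measured 17.9, 15.4, 14.97 and 16.05 TPM with tolvaptan plus dDAVP and 14.7, 14.5, 13.6 and 13.8 TPM with dDAVP alone. The groups did not overlap, with tolvaptan 1 the highest. The log2 fold change was 0.19 with a standard error of 0.06 and an interval of 0.05 to 0.32 (unadjusted p = 0.0103, adjusted p = 0.263 by edgeR). With any 1 library left out it lay between 0.14 and 0.22, and it was lowest without tolvaptan 1.

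Ern1, which encodes the kinase and ribonuclease IRE1α, was the least abundant of the members at 3.15, 2.53, 3.09 and 2.87 TPM with tolvaptan plus dDAVP and 2.28, 2.63, 2.99 and 2.37 TPM with dDAVP alone. The groups overlapped. The log2 fold change was 0.32 with a standard error of 0.12 and an interval of 0.05 to 0.60 (edgeR adjusted p = 0.35). The size of this estimate rested in part on the measure and on single libraries, at 0.13 in limma on log2(TPM + 1), 0.18 on log2(TPM + 0.1) and 0.21 without tolvaptan 1.

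Eif2ak3, which encodes the eIF2α kinase PERK, measured 14.9, 15.9, 13.3 and 15.4 TPM with tolvaptan plus dDAVP and 12.8, 13.2, 13.8 and 13.6 TPM with dDAVP alone. Replicate 3 with tolvaptan lay among the libraries with dDAVP alone. The log2 fold change was 0.14 (interval 0.0042 to 0.28, edgeR adjusted p = 0.427), and the difference in log2 CPM was 0.25 among replicates 1 and 2 and 0.03 among replicates 3 and 4.

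Xbp1, the most abundant of the sensor list, measured 236, 218, 218 and 224 TPM with tolvaptan plus dDAVP and 227, 207, 232 and 241 TPM with dDAVP alone. The groups overlapped almost fully, with a log2 fold change of -0.05 and an interval of -0.17 to 0.07. These values add the spliced and unspliced forms of Xbp1, so they do not measure the activity of IRE1α.

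None of the 11 transcripts of the ATF4 arm passed the test. By edgeR 0 of 11 were called, beside 0.399% of all genes tested, and 0 had an unadjusted p under 0.05, beside 11.2%. The edgeR adjusted p ran from 0.567 to 0.983, and DESeq2 and limma called 0 as well. The fitted log2 fold changes ran from -0.08 for Atf4 to 0.12 for Chac1, with a median of 0.04. They were above 0 for 9 and below 0 for 2, beside 7130 above and 7642 below of all genes tested. For all 11 the 95% interval lay within a fold of 1.25 in either direction, beside 55.8% of all genes. Chac1, with an upper bound of 0.32 on the log2 scale, was only just inside.

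Atf4 itself, whose protein level is set largely by translation, measured 320, 339, 334 and 327 TPM with tolvaptan plus dDAVP and 359, 322, 321 and 373 TPM with dDAVP alone. The libraries with tolvaptan lay almost wholly inside the range of those without it. Its mean was 330 ± 8.26 TPM with tolvaptan plus dDAVP and 344 ± 26.3 TPM with dDAVP alone (SD, n = 4 each), and its log2 fold change was -0.08 with an interval of -0.21 to 0.06 (edgeR adjusted p = 0.691).

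Ddit3, which encodes the proapoptotic factor CHOP, measured 69.0, 62.1, 63.0 and 70.6 TPM with tolvaptan plus dDAVP and 65.1, 57.8, 58.7 and 58.4 TPM with dDAVP alone under its main identifier, ENSMUSG00000025408. The groups overlapped through dDAVP 1. Its log2 fold change was 0.09 with an interval of -0.05 to 0.23 (edgeR adjusted p = 0.662). Ddit3 shares 68 exon bases with Mars on the opposite strand in GENCODE M21, and since the kit does not mark strand, reads there cannot be told apart. Mars had up to 19098 counts in a library, against 954 to 1384 for Ddit3. Cebpg, a dimer partner of ATF4, averaged 35.1 ± 3.62 TPM with tolvaptan plus dDAVP and 34.1 ± 2.66 TPM with dDAVP alone (SD, n = 4 each), and the pseudokinase Trib3, which binds ATF4 and restrains it, averaged 82.9 ± 2.62 TPM with tolvaptan plus dDAVP and 80.03 ± 8.37 TPM with dDAVP alone.

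Chac1, which encodes an enzyme that degrades glutathione, had the largest fitted change of the arm. It measured 212, 179, 175 and 177 TPM with tolvaptan plus dDAVP and 163, 141, 169 and 200 TPM with dDAVP alone. The groups overlapped, and the log2 fold change was 0.12 with an interval of -0.08 to 0.32 (edgeR adjusted p = 0.683). Single libraries of both groups moved this estimate, to 0.07 without tolvaptan 1, 0.04 without dDAVP 2 and 0.22 without dDAVP 4. Sesn2, whose protein restrains mTORC1, averaged 109 ± 0.537 TPM with tolvaptan plus dDAVP and 101 ± 10.5 TPM with dDAVP alone (SD, n = 4 each), at a log2 fold change of 0.10.

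The enzymes of amino acid supply were close to equal between groups. Phgdh, the first enzyme of serine synthesis and the most abundant of the arm, measured 483, 467, 442 and 471 TPM with tolvaptan plus dDAVP and 435, 427, 446 and 484 TPM with dDAVP alone, at a log2 fold change of 0.04 (interval -0.07 to 0.15). Psat1, the next enzyme of that pathway, had a log2 fold change of -0.03, and the mitochondrial one-carbon enzymes Shmt2 and Mthfd2 had 0.01 and 0.03. Asns, which makes asparagine, averaged 249 ± 11.3 TPM with tolvaptan plus dDAVP and 240 ± 22.6 TPM with dDAVP alone (SD, n = 4 each), at a log2 fold change of 0.02 with an interval of -0.12 to 0.16.

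Most ATF4 genes shared their lowest and highest libraries, both in the group with dDAVP alone. Expressed as the mean over the 11 genes of each gene's log2 CPM minus its mean in all 8 libraries, the level of the arm was 0.02, 0.03, 0.01 and 0.03 in the libraries with tolvaptan plus dDAVP and 0.0034, -0.14, -0.05 and 0.10 in those with dDAVP alone. The range was thus 0.02 within the group with tolvaptan and 0.23 within the group without it. Of the 11 genes 8 were highest in dDAVP 4, as were 15.9% of all genes tested, and 7 were lowest in dDAVP 2, as were 13.1% of all genes. Ddit3 and Cebpg went the other way in log2 CPM and were at their lowest in dDAVP 4, as were 12.9% of all genes. In TPM this did not hold. Ddit3 was lowest in dDAVP 2, at 57.8 TPM beside 58.4 TPM in dDAVP 4. Cebpg was lowest in tolvaptan 1, at 29.98 TPM beside 34.4 TPM in dDAVP 4. Leaving out dDAVP 2 gave a median log2 fold change of the arm of -0.00952, and leaving out dDAVP 4 gave 0.07, against 0.04 in all libraries.

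**Figure D3:**
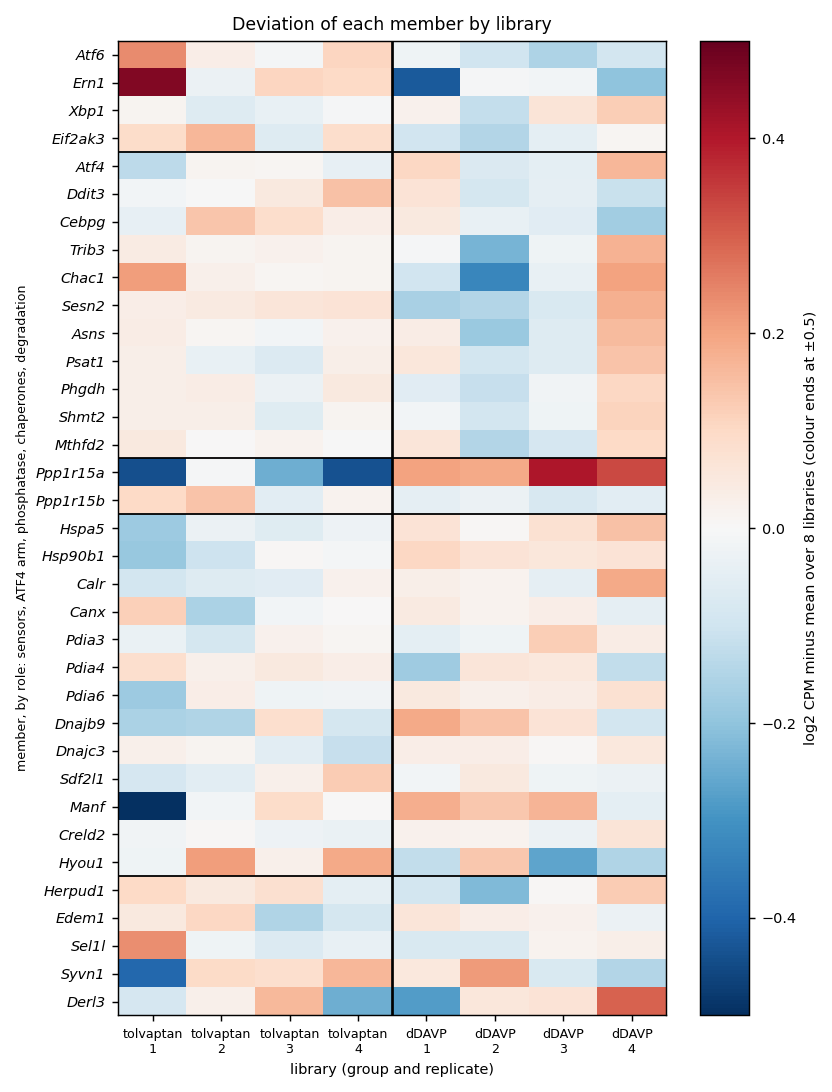
Heat map of log2 CPM of each member minus its mean over the 8 libraries, with genes in rows by role, the 4 libraries with tolvaptan plus dDAVP at the left and the 4 with dDAVP alone at the right, and colours ending at 0.5 in either direction. Most rows of the ATF4 arm are bluest in dDAVP 2 and reddest in dDAVP 4, and Ppp1r15a is red in all 4 libraries with dDAVP alone.

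Short stretches of the promoters of Asns and Chac1 are shown for the element that ATF4 and C/EBP factors share, written TGATGNAAN (CARE) and searched on both strands. They come from RefSeq on GRCm38.p6, at chr6:7693179-7693278 on the minus strand and at chr2:119351002-119351101 on the plus strand, with the match in capitals. It lies from -23 to -15 in Asns and, on the opposite strand, from -194 to -186 in Chac1.
Asns: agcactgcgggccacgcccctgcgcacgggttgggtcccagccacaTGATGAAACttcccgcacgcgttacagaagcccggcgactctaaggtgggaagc
Chac1: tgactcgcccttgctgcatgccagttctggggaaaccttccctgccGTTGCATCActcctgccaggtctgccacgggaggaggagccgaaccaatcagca
The letters were present in the windows of 3 of the 11 ATF4 genes (Asns, Chac1 and Trib3) and in 4.5% of all genes. Outside the arm Herpud1 was the only member with a match. The transcripts of Chac1 and Asns, whose promoter windows hold the match, measured as given above, with intervals that include 0.

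The ER chaperones ranged widely in level, from 15.2 TPM for Hyou1 to 1005 TPM for Hspa5 over all libraries. Hspa5 and Hsp90b1 were 9.8% and 9.6% lower in the fit, and neither passed the adjusted threshold. By edgeR 0 of 13 chaperone genes were called, beside 0.399% of all genes tested, and DESeq2 and limma also called 0. At an unadjusted p under 0.05, 2 of 13 were lower (beside 4.74% of all genes) and 1 was higher (beside 6.44%). Fitted values were below 0 for 10 and above 0 for 3, beside 7642 below and 7130 above of all 14772 genes tested. The median of the 13 was -0.06. Of the 13 intervals, 10 lay within a fold of 1.25 in either direction, beside 55.8% of all genes.

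Hspa5, which encodes BiP, the chaperone that binds all 3 sensors, measured 893, 982, 955 and 986 TPM with tolvaptan plus dDAVP and 1035, 1015, 1050 and 1120 TPM with dDAVP alone. The groups did not overlap. Its mean was 954 ± 43.0 TPM with tolvaptan plus dDAVP and 1055 ± 45.7 TPM with dDAVP alone (SD, n = 4 each), and its log2 fold change was -0.15, standard error 0.05, interval -0.25 to -0.05 (unadjusted p = 0.00872, adjusted p = 0.244 by edgeR). The difference in log2 CPM was -0.14 among replicates 1 and 2 and -0.16 among replicates 3 and 4.

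Hsp90b1, which encodes GRP94, the HSP90 of the ER, measured 488, 501, 534 and 533 TPM with tolvaptan plus dDAVP and 569, 570, 555 and 557 TPM with dDAVP alone. These groups also did not overlap, and the log2 fold change was -0.15, standard error 0.05 (unadjusted p = 0.0105, adjusted p = 0.263 by edgeR). The difference in log2 CPM was -0.23 among replicates 1 and 2 and -0.07 among replicates 3 and 4. Hsp90b1 shares 415 exon bases with 1810014B01Rik on the opposite strand, with the same limit. That gene had at most 656 counts in a library.

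Hyou1, which encodes a large chaperone that exchanges the nucleotide of BiP, had a fitted value of the opposite sign. It measured 15.3, 17.6, 14.9 and 17.8 TPM with tolvaptan plus dDAVP and 13.4, 17.1, 12.6 and 13.0 TPM with dDAVP alone, so dDAVP 2 lay among the libraries with tolvaptan. Its log2 fold change was 0.20 with an interval of 0.01 to 0.39 (unadjusted p = 0.0402, adjusted p = 0.414 by edgeR). The ratio of Hspa5 to Hyou1 in TPM was 58.4 ± 3.99 with tolvaptan plus dDAVP and 76.7 ± 12.1 with dDAVP alone (SD, n = 4 each). The groups overlapped, as dDAVP 2 at 59.35 lay inside the range with tolvaptan, 55.48 to 64.06. This ratio restates the opposite signs of the fitted values of Hspa5 and Hyou1 and is not a separate result.

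Manf, which encodes a secreted protein that binds BiP, had the largest fitted change of the chaperone list, much of it from a single library. It measured 99.0, 131, 136 and 144 TPM with tolvaptan plus dDAVP and 156, 138, 149 and 128 TPM with dDAVP alone. Its log2 fold change was -0.20 with an interval of -0.45 to 0.04 (edgeR adjusted p = 0.546), and -0.08 without tolvaptan 1. Manf shares 146 exon bases with Dcaf1 on the opposite strand in GENCODE M21, where reads cannot be told apart. Dcaf1 had up to 2822 counts in a library, against 1310 to 2932 for Manf. Of the 13 chaperone genes, 7 were lowest in tolvaptan 1, the library that stood apart above and in which 25.6% of all genes were lowest, and without it the log2 fold change was -0.11 for Hspa5, -0.11 for Hsp90b1 and -0.07 for the median of the list.

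The lectin chaperones of glycoproteins were Calr, at 546 ± 17.7 TPM with tolvaptan plus dDAVP and 572 ± 45.5 TPM with dDAVP alone (SD, n = 4 each), and Canx, at a log2 fold change of -0.02. The disulfide isomerases Pdia3, Pdia4 and Pdia6 had log2 fold changes of -0.05, 0.09 and -0.09 with edgeR adjusted p of 0.544 or more. The partners of BiP from the J-domain family were Dnajb9, at 18.9 ± 1.38 TPM with tolvaptan plus dDAVP and 20.9 ± 1.81 TPM with dDAVP alone (SD, n = 4 each, log2 fold change -0.16, edgeR adjusted p = 0.489), and Dnajc3, at -0.06. Sdf2l1, which binds J-domain partners of BiP, and the folding factor Creld2 had log2 fold changes of 0.01 and -0.04.

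The promoters of Hspa5 and Hsp90b1 are shown because their transcripts separated the groups and because both hold the ER stress response element (ERSE), CCAAT and CCACG with 9 bases between, which ATF6 binds together with NF-Y. The RefSeq windows on GRCm38.p6 are chr2:34771840-34772139 on the plus strand for Hspa5 (300 bases) and chr10:86705520-86705669 on the minus strand for Hsp90b1 (150 bases). Capitals mark the CCAAT and CCACG letters of each match, or their complement where the match is on the opposite strand.
Hspa5: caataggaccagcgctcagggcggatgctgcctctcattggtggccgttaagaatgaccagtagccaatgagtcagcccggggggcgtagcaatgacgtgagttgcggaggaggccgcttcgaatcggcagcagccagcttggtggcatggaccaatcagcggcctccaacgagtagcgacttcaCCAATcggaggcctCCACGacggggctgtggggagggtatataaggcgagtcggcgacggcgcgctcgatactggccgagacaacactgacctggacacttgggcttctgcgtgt
Hsp90b1: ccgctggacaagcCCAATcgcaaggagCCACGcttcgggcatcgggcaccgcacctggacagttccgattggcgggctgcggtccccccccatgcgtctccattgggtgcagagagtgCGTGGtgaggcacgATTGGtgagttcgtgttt
The match in Hspa5 lies from -65 to -47, and those in Hsp90b1 lie from -212 to -194 and from -107 to -89. Searched on both strands, the element was present in 7 of the 11 chaperone genes with a window (Calr, Canx, Creld2, Dnajc3, Hsp90b1, Hspa5 and Pdia6), in 2 of the 5 degradation genes (Derl3 and Syvn1), in 0 of the 11 ATF4 genes and in 0.137% of all genes. The fitted log2 fold changes of the 7 chaperones with the element ran from -0.15 for Hspa5 to -0.02 for Canx, and those of the 4 with a window but no match were -0.16 for Dnajb9, -0.05 for Pdia3, 0.01 for Sdf2l1 and 0.09 for Pdia4, so the ranges overlapped. The XBP1 element TGACGTGG, which shares its opening letters with the CRE, was in 0.714% of all genes and in 0 of the 31 member windows. Manf, Ppp1r15b, Atf6 and Hyou1 had no window in the table.

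**Figure D4:**
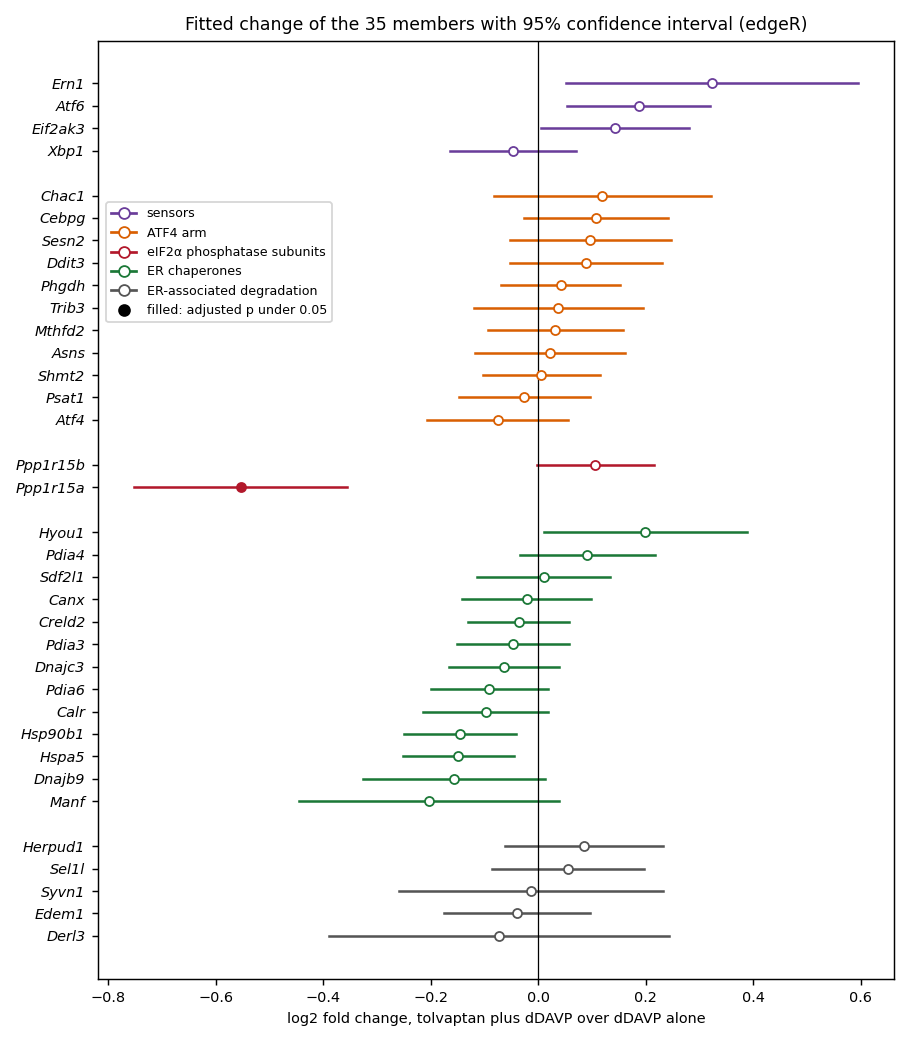
Fitted log2 fold change of each member, tolvaptan plus dDAVP over dDAVP alone, with its 95% confidence interval from edgeR, grouped by role, where a filled point marks an adjusted p under 0.05. Ppp1r15a at -0.55 is the only filled point, the ATF4 arm lies between -0.08 and 0.12, and the chaperones lie between -0.20 and 0.20.

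No gene of ER-associated degradation passed the test. By edgeR 0 of 5 were called, beside 0.399% of all genes tested, and 0 had an unadjusted p under 0.05, beside 11.2%. DESeq2 and limma called 0, and the median log2 fold change was -0.01. Herpud1, which encodes a membrane scaffold of the degradation complex, measured 470, 434, 440 and 403 TPM with tolvaptan plus dDAVP and 390, 365, 416 and 454 TPM with dDAVP alone. The groups overlapped, at a log2 fold change of 0.09 with an interval of -0.06 to 0.23 (edgeR adjusted p = 0.692).

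Edem1, which helps to pick misfolded glycoproteins, had a log2 fold change of -0.04, and Sel1l, the adaptor of the ubiquitin ligase, had 0.06. The ligase Syvn1 was at -0.01 with an interval of -0.26 to 0.23, and shares 91 exon bases with the opposite strand gene Mrpl49, which had up to 8990 counts in a library. Derl3, a member of the derlin family of membrane proteins, averaged 6.79 ± 1.11 TPM with tolvaptan plus dDAVP and 6.91 ± 0.926 TPM with dDAVP alone (SD, n = 4 each), and its interval of -0.39 to 0.24 was the widest of these 5 genes.

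Genes of the same pathways outside the 35 gave few values that stood out. Of 121 further genes tested, edgeR called 0, beside 0.399% of all genes. At an unadjusted p under 0.05, 7 were lower and 7 higher (5.79% each, beside 4.74% and 6.44% of all genes). DESeq2 called 1 of them, Ero1b (0.826%, beside 2.28% of all genes), and limma called 0. Among 31 further ATF4 targets tested, whose median was 0.05, the smallest p belonged to Gdf15, a secreted stress cytokine. Gdf15 measured 86.6, 136, 90.5 and 86.8 TPM with tolvaptan plus dDAVP and 145, 135, 187 and 156 TPM with dDAVP alone, and the groups overlapped through tolvaptan 2. Its log2 fold change was -0.66 with a standard error of 0.15 (edgeR adjusted p = 0.092). Leaving out tolvaptan 2, the library that overlapped, gave -0.85 with an edgeR adjusted p of 0.00423. With any other single library left out Gdf15 was not called.

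The amino acid transporter Slc7a5 was next, at 142 ± 7.35 TPM with tolvaptan plus dDAVP and 125 ± 7.67 TPM with dDAVP alone (SD, n = 4 each, log2 fold change 0.17, edgeR adjusted p = 0.279). The fitted values of 11 of the 12 aminoacyl tRNA synthetases were above 0, as were those of 7130 of all 14772 genes tested. The median of the 12 was 0.05, and it was 0.01 without dDAVP 2 and 0.09 without dDAVP 4. Wars led the list at 0.15 (edgeR adjusted p = 0.195), followed by Nars at 0.14 (edgeR adjusted p = 0.384). Of 11 genes for eIF2α kinases, eIF2 and eIF2B the median was -0.01, with Eif2ak2, the kinase PKR, at 0.19 (adjusted p = 0.369) and Eif2b2 at 0.07.

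Of 21 further folding and disulfide factors, 17 had fitted values below 0, as had 7642 of all 14772 genes tested. The median of the 21 was -0.05. The disulfide oxidase Ero1b measured 4.52, 4.48, 4.04 and 4.78 TPM with tolvaptan plus dDAVP and 5.88, 4.91, 5.42 and 5.66 TPM with dDAVP alone, without overlap, and its log2 fold change was -0.38, standard error 0.10 (adjusted p = 0.145 by edgeR and 0.0192 by DESeq2). Its relative Ero1a had -0.13 (edgeR adjusted p = 0.351). Of 22 genes of the translocon and of glycosylation 19 were below 0, beside the same 7642 of all 14772 genes. The median of the 22 was -0.05, and it was -0.02 without tolvaptan 1 and -0.07 without tolvaptan 3. Sec62 at -0.17 and Ssr2 at -0.13 led this list, both with edgeR adjusted p above 0.42. The 17 further degradation genes had a median of 0.0035, with Erlec1 at -0.23 and Faf2 at 0.10, and the 7 membrane-bound factors tested had a median of -0.01, with Creb3l2 at -0.08 and Mbtps1 at 0.07.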

How the data were processed

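The sample titles gave the groups and replicate numbers. Per the labels, a SMARTer kit made the cDNA and Nextera XT the libraries, without marking strand. Reads were aligned with STAR to an Ensembl mouse genome and quantified with RSEM, with versions not given in the sources used here. The authors deposited RSEM expected counts per gene without normalization, and TPM values, which correct for transcript length and have an equal total per library. The authors' deposited tables of DESeq2 results (fold changes and p-values) and of term enrichment were not used.

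These counts were rounded. The test covered genes that reached 10 counts in 4 or more libraries, in edgeR 4.0.16 under R 4.3.3 (TMM normalization, quasi-likelihood test, two-sided, no covariate), with Benjamini-Hochberg adjustment over all genes tested and a threshold of 0.05. A second test was made against a fold of 1.5. The study used DESeq2, which is an alternative here (1.42.0), as is limma 3.58.1 with a trend on log2(TPM + 1) or log2(TPM + 0.1), where a fold change understates that of low genes. Log2 CPM used a prior count of 2. Other alternatives were RLE and upper-quartile normalization, a replicate block, each library left out in turn, filterByExpr, a TPM maximum over 10, and no filter. The fits were tested on simulated data. Libraries all differed by more than sampling noise (lowest chi-square over its degrees of freedom 8.14, from 28 pairs).

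The members and all lists were chosen with earlier results of these data known. Values per library are given for members past the adjusted threshold, with an unadjusted p under 0.05 or without overlap, for the most abundant of each role, for Atf4, Xbp1, Ddit3 and Hspa5, and for the largest fitted change of the ATF4 and chaperone lists; Ppp1r15b was added after its values were seen. From the further lists the 2 genes with the smallest p are named. Promoters are RefSeq windows on GRCm38.p6 and exon overlaps are from GENCODE M21, neither being the annotation of the counts, and motifs were searched as exact letters.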

Additional observations from a re-analysis of the deposited data

Results flagged for a closer look

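Within groups of 4 libraries, 3 TPM values of the members lay far from the rest of their group. The search covered 82 groups of values, member TPM and list levels together, and no list level was marked. Chance alone marks about 5% of groups, so 3 is no more than it would give. Chac1 measured 212 TPM in tolvaptan 1, beside 179 TPM in the nearest library of that group. Trib3, the pseudokinase, measured 86.8 TPM in the same library, beside 81.8 TPM in the nearest. Ddit3 measured 65.1 TPM in dDAVP 1, beside 58.7 TPM in the nearest. None of these genes passed the test between groups.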

How the results depend on the processing

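Of 593 fitted values of members under 17 alternatives, 19 had the opposite sign, spread over 11 members, and none of the 118 values of the 7 members with an unadjusted p under 0.05 did. All genes called numbered 337 with DESeq2, 19 and 21 with limma at pseudocounts of 1 and 0.1, 256 with no filter, 17 with the replicate block and 20 to 82 with a library left out, and those called against a fold of 1.5 numbered 15 with no filter and 0 to 3 with a library left out. The call of Ppp1r15a, and with it the count of called phosphatase subunits and of called members, fell to 0 with limma at either pseudocount (adjusted p = 0.1 and 0.0945) and with the replicate block (log2 fold change -0.56, adjusted p = 0.0731), and was 0 to 1 with a library left out. Same-numbered libraries correlated in their deviations by -0.01, 0.03, 0.16 and -0.01, so replicate 3 alone was above 0.1 and the numbers were not taken as pairs, and the block called no other member. Further ATF4 targets called were 2 with no filter (Gdf15 and Atf3, at log2 fold changes of -0.68 and -0.49) and 0 to 1 with a library left out, and further folding factors called were 1 (Ero1b) with DESeq2 and with no filter. Medians near 0 moved: membrane-bound factors to 0.015 and 0.0174 with limma, -0.0643 with no filter, -0.0392 with a maximum TPM above 10 and -0.051 to 0.0433 with a library left out; all 35 members to -0.019 with no filter and -0.023 to 0.0229 with a library left out; further degradation genes to 0.028 with a maximum TPM above 10 and -0.0155 to 0.0249 with a library left out. Ern1 and Derl3 were not tested at a maximum TPM above 10. These 2, the least abundant members at 2.74 and 6.85 TPM, had the widest intervals of the 35.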

Other observations

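The second Ddit3 identifier, ENSMUSG00000116429, shares 105 exon bases with the main one on the same strand in GENCODE M21. It was listed at 80.2, 0, 0 and 0 TPM with tolvaptan plus dDAVP and at 46.6, 30.8, 43.3 and 0 TPM with dDAVP alone. These TPM values stood on 2.92, 0, 0 and 0 expected counts with tolvaptan plus dDAVP and 1.93, 4.2, 3.23 and 0 expected counts with dDAVP alone, while the main identifier of Ddit3 had 954 to 1212 counts and 1029 to 1384 counts in those groups. A sum of both identifiers in TPM would therefore give Ddit3 a level set by a few counts in 4 of the 8 libraries.

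Among the chaperones the ratio of Hspa5 to Hsp90b1 in TPM was 1.86 ± 0.0724 with tolvaptan plus dDAVP and 1.88 ± 0.102 with dDAVP alone (SD, n = 4 each). The groups overlapped. This ratio restates the nearly equal fitted changes of Hspa5 and Hsp90b1 and is not a separate result.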
